A study of Mus musculus with 4 samples.

Results

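The dorsal and ventral class II neurons were mature olfactory sensory neurons of the mouse main olfactory epithelium, which lines part of the nasal cavity and senses odours. They were taken from 4 single-cell RNA libraries, 2 labelled female and 2 male, with mice 3 months old, wild type and of the strain C57BL/6J. No group carried an allele, transgene or treatment, and the labels do not say whether a library came from 1 animal or from several. A neuron was kept when at least 500 genes were detected, at most 10% of its UMIs were mitochondrial, Omp had at least 20 UMIs and Cyp2g1 at most 15. UMIs, unique molecular identifiers, count captured RNA molecules. The odorant receptor gene with the most UMIs had to have at least 3 UMIs and 80% of all receptor UMIs of the cell, and its symbol number had to lie outside the block of class I receptors. A neuron was called dorsal when it held at least 3 UMIs of Nqo1 and 0 of Ncam2, and ventral when it held at least 2 UMIs of Ncam2 and 0 of Nqo1. The members were thus chosen by their measured Nqo1, Ncam2, Omp, Cyp2g1 and receptor counts, their mitochondrial share and their number of detected genes. These gates kept 1247 dorsal and 5446 ventral neurons, 6693 of the 41911 barcodes in all. The number of a receptor does not fully separate the classes: 8 receptors numbered outside the class I block lie within its span on chromosome 7 (102476579 to 105369355 on GRCm38), and 46 dorsal and 1 ventral neurons used them. Results that rest on these neurons are given with and without them.

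Each mature olfactory sensory neuron transcribes mainly a single odorant receptor gene. Class II receptors are the larger of the receptor families of land vertebrates, and each of their genes is used within a limited band of the epithelium between its dorsal and ventral edges. Axons keep this order on their way to the olfactory bulb, where cells with the same receptor converge, and guidance receptors such as Nrp2 and Robo2 are known for graded levels along this axis. Nqo1 is a quinone reductase found in dorsal neurons and Ncam2 (also called OCAM) is an adhesion molecule of the remaining zones. The transcription factors of the nuclear factor I (NFI) family are known regulators of zonal receptor choice.

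The sequences next to 3 gene starts show the short NFI motif TTGGCA near a gate gene and near named genes of each side. They come from RefSeq (GRCm38.p6), are given 5′ to 3′ on the strand of the gene, and carry in capitals the motif or its reverse complement. The windows are chr8:107403274-107403393 on the minus strand for Nqo1, chr7:119689837-119689956 on the plus strand for Acsm4, the gene most strongly dorsal below, and chr11:114727181-114727300 on the plus strand for Dnaic2, a ventral gene.
Nqo1: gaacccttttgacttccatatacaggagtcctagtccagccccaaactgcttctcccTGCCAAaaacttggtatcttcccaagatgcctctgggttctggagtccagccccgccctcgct
Acsm4: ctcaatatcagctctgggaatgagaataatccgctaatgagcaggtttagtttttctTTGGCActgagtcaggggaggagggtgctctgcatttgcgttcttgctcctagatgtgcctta
Dnaic2: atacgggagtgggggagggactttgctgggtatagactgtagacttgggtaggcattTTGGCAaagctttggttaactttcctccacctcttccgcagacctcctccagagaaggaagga
Of the 12 dorsal and 12 ventral genes named below, 8 and 9 were in the RefSeq promoter table. Within the 250 bases before the start, on either strand, TTGGCA occurred in 1 of the 8 (Acsm4) and in 1 of the 9 (Dnaic2), and in 12.3% of all 32851 windows of the table. The longer NFI palindrome, TTGGC and GCCAA with 5 bases of any kind between them, occurred in 0 of the 8, in 0 of the 9 and in 0.0365% of all windows. The antioxidant response element TGACNNNGC occurred near 2 dorsal genes (Bmp6 and Acss2), near 1 ventral gene (Stk26) and in 10.2% of windows. A match is a description of letters and shows no binding.

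Depth lay between 100725429 and 111577458 UMIs per library over 10256 to 10777 barcodes. Library pairs shared 909 barcode sequences in all, between 1.33% and 1.62% of the smaller library, and 12 of them were gated neurons in both. Class II neurons numbered 3612, 3462, 3547 and 3565 in female 1, female 2, male 1 and male 2. The median depth of the gated dorsal neurons was 6893.5 to 7822.5 UMIs per library. It was below that of the gated ventral neurons, 9279 to 9962, with no overlap. The gates themselves use UMI counts, and their effect on depth was not tested. In neurons that passed neither gate, placed by receptor as described below, the dorsal medians were 10171, 9616, 6032.5 and 6295.5 UMIs. The ventral medians were 8961, 8753.5, 8686 and 8336 UMIs in the same order of libraries. The dorsal side was thus deeper in the females and shallower in the males, though few of these neurons were dorsal.

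Counts were summed per library and side, and levels are given as CPM, the counts of a gene scaled to a total common to every sum. The mature neuron label was checked with genes outside the gates. Cnga2, a subunit of the olfactory cyclic nucleotide-gated channel, had 860.6 to 1093 CPM in dorsal and 1011 to 1037 CPM in ventral sums, and Adcy3, the olfactory adenylyl cyclase, 1445 to 1651 and 1449 to 1506 CPM. The gate genes are given as a description only, since they chose the cells. Nqo1 had 1744 to 2375 CPM in dorsal sums and Ncam2 had 311 to 335.7 CPM in ventral sums.

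The gates divided the neurons unevenly. Dorsal neurons numbered 252, 298, 281 and 416 in female 1, female 2, male 1 and male 2, and ventral neurons 1488, 1343, 1359 and 1256. The dorsal share of gated neurons was 14.5%, 18.2%, 17.1% and 24.9% in the same order. Male 2 was highest, and the other 3 libraries overlapped between the sexes. The mean was 16.3% ± 2.6 (SD, n = 2) in females and 21.01% ± 5.48 (SD, n = 2) in males, an exact two-sided permutation test gave p 0.667, and 2 libraries against 2 cannot go below 0.333. Without male 2 the difference of 4.69 percentage points was 0.813. The shares depend on the gates: at 5 or more UMIs of Nqo1 and 4 or more of Ncam2 they were 32.4%, 38.1%, 35.3% and 49.8%.

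Neurons just outside the dorsal gate overlapped over the libraries with those just inside it for the dorsal genes named below, other than Bmp6. Acsm4 had 451.9 ± 102 CPM (SD, n = 4) in the 77 neurons with 3 UMIs of Nqo1 and 412.2 ± 97.0 CPM in the 100 neurons with 2, against 158.8 ± 26.2 CPM in the 257 neurons with 1. Bmp6 had 47.3 CPM at 3 UMIs (40.5 to 51.7 over the libraries) and 15.8 CPM at 2 (9.31 to 20.9), which did not overlap. These classes are small, and Bmp6 was uneven within the gate, with 34.2 CPM at 4 to 9 UMIs and 63.3 CPM at 10 or more. On the ventral side Nfib had 126.5 ± 12.3 CPM in the 2373 neurons with 2 UMIs of Ncam2 and 124.8 ± 10.98 CPM in the 3156 neurons with 1. The 3310 neurons with neither gate gene had Nfib at 114.6 ± 12.1 CPM, near the ventral values, and Acsm4 at 36.1 ± 14.7 CPM, above all ventral classes (5.39 to 5.98 CPM). The 670 neurons that held UMIs of both genes had intermediate Acsm4, 79.5 ± 11.8 CPM.

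**Figure D1:**
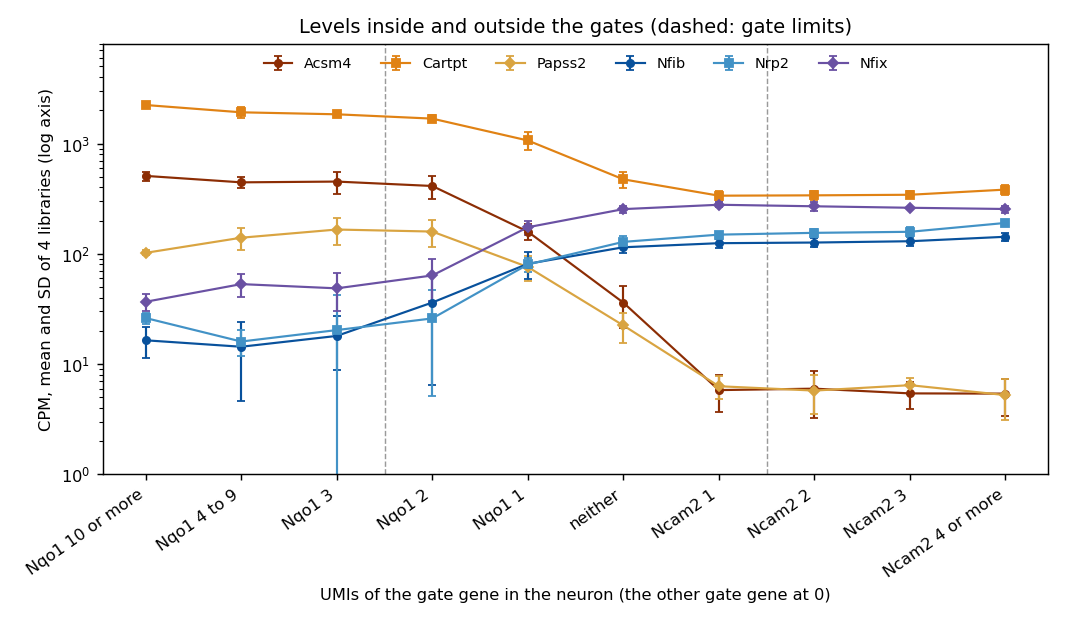
Level of 6 genes (CPM, log axis, mean and SD of 4 libraries) in class II neurons ordered by their UMIs of the gate genes, with the gate limits dashed. Acsm4 runs from 508.8 CPM at 10 or more Nqo1 UMIs to 5.39 CPM at 4 or more Ncam2 UMIs, Nfib from 16.4 to 142.7 CPM in the other direction, and an SD larger than its mean reaches the foot of the axis.

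The gated neurons of a receptor almost always fell on the same side, although receptor identity had not entered the gates beyond class. The gates left out 7493 class II neurons, among them the 670 with UMIs of both gate genes. How far this sharpened the division was not tested. Gated neurons used 769 receptors. Among the 215 receptors with at least 10 gated neurons, 29 had at least 90% of them dorsal, 178 had at least 90% ventral and 8 lay between. Of the 4485 neurons of these receptors, 40 (0.892%) were on the less common side of their receptor. The most numerous ventral receptors were Olfr536 (110 ventral and 0 dorsal neurons), Olfr728 (96 and 0), Olfr1348 (88 and 0), Olfr1507 (76 and 1), Olfr1264 (67 and 0) and Olfr1226 (63 and 0). The most numerous dorsal receptors had fewer neurons each, with Olfr1361 at 26 dorsal and 0 ventral, Olfr411 at 21 and 0, Olfr969 at 20 and 1, Olfr250 at 19 and 0, Olfr65 at 18 and 0 (one of the 8 receptors within the class I span), and Olfr24 (17 and 2) and Olfr1176 (17 and 0) level after them.

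Olfr523 was the only receptor with at least 20 gated neurons that lay between the sides. It had 0, 1, 1 and 3 dorsal and 1, 5, 6 and 6 ventral neurons in female 1, female 2, male 1 and male 2, so that both kinds came from 3 libraries. The next 3 closest to an even split were Olfr329 (1 dorsal, 19 ventral), Olfr969 (20 dorsal, 1 ventral) and Olfr1349 (1 dorsal, 21 ventral). With fewer neurons, Olfr972 (5 dorsal, 6 ventral) and Olfr522 (9 dorsal, 3 ventral) were also mixed and were named after their values were seen.

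Dorsal receptors were spread over the genome but not evenly. On chromosome 9, 9 of 14 receptors with at least 10 gated neurons were dorsal, against 4 of 60 on chromosome 2, 1 of 18 on chromosome 14, 0 of 11 on chromosome 16 and 0 of 13 on chromosome 19. Of 168 pairs of neighbouring receptors within 1 Mb of each other, 154 (91.7%) lay on the same side, 14 of them dorsal and 140 ventral, and 14 pairs were opposite. Since 178 of the 215 receptors were ventral, most pairs would be ventral whatever their positions. Receptors of similar sequence can share reads, which was not tested.

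**Figure D2:**
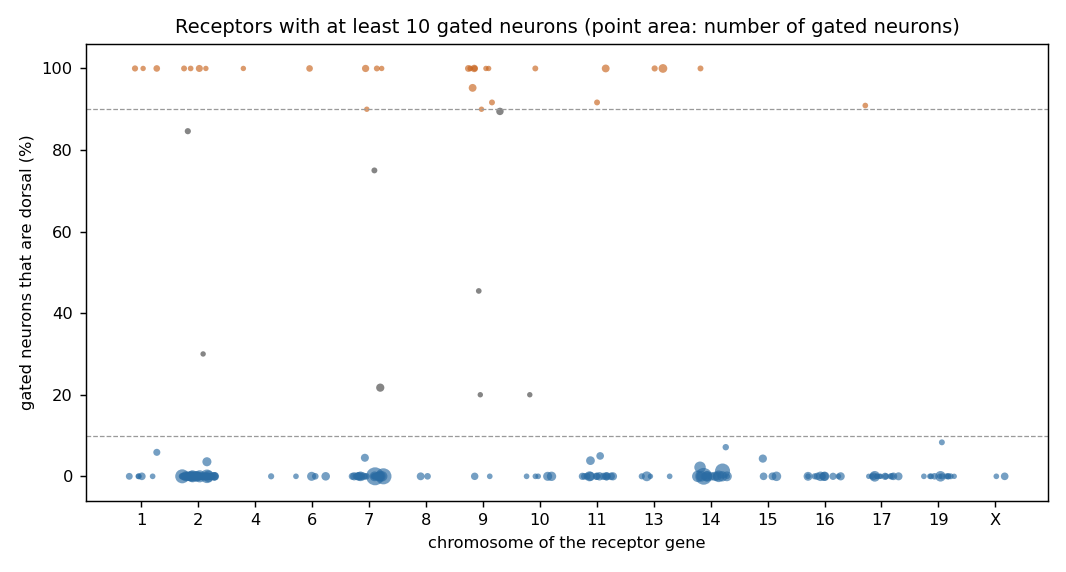
Share of gated neurons that were dorsal (%) for each of the 215 receptors with at least 10 gated neurons, by chromosome, with point area showing the number of gated neurons and dashed lines at 10% and 90%. Nearly all points sit at the top or the bottom, 9 of the 14 receptors of chromosome 9 are dorsal, and Olfr523 on chromosome 7 is the largest of the 8 points between the lines.

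The comparison of the sides asked which genes other than receptors go with the zone of a class II neuron. The quasi-likelihood test of edgeR, with the library as a block, found 3025 of 11518 genes past an adjusted p (Benjamini-Hochberg) of 0.05, which is 26.3%. Of these, 1450 (12.6%) were higher in dorsal and 1575 (13.7%) higher in ventral neurons. With no scaling beyond library size the split was 1138 against 1917. Without the neurons of the 8 receptors within the class I span, 2973 genes were called. Most differences were small. At least 2-fold were 465 genes (4.04%), of which 103 (0.894%) were higher in dorsal and 362 (3.14%) higher in ventral neurons. The 4 dorsal and 4 ventral sums did not overlap for 3089 genes (26.8%). Fold changes below are log2 values of dorsal over ventral with their standard error, and adjusted p-values are from edgeR.

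The genes highest in dorsal neurons were led by Acsm4, a medium-chain acyl-CoA synthetase known as a marker of the dorsal zone. Acsm4 had 548.5, 489.9, 475.1 and 426.0 CPM in the dorsal sums of female 1, female 2, male 1 and male 2, and 4.004, 5.54, 5.50 and 7.60 CPM in the ventral sums. Every dorsal library was far above every ventral library, with a log2 fold change of 6.48 ± 0.11 (89.2-fold, adjusted p 5.4e-14). Papss2, which makes the sulfate donor of sulfation reactions, had 126.2, 116.0, 105.7 and 112.7 CPM in dorsal and 5.21, 5.33, 4.397 and 8.01 CPM in ventral sums (log2 4.37 ± 0.12, adjusted p 5.8e-12). Cartpt, the precursor of the CART peptides, was abundant on both sides and still 6.15-fold higher in dorsal neurons, with 2083, 2128, 2148 and 2167 CPM against 332.3, 358.2, 382.2 and 352.4 CPM (log2 2.62 ± 0.04, adjusted p 1.2e-14). A Cartpt UMI was found in 99.6% of dorsal and 60.1% of ventral neurons, at median depths of 7233 and 9712 UMIs, and in 15.4% of barcodes rich in the supporting-cell gene Cyp2g1, whose median was 13920 UMIs. With each cell thinned to 2000 UMIs, which left out 1 dorsal neuron, the dorsal and ventral shares were 95.9% and 35.6%.

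The other dorsal genes named by rank were lower in level. Nob1, an endonuclease of ribosome maturation, had 117.5, 131.4, 104.8 and 128.0 CPM in dorsal and 18.4, 17.5, 17.5 and 15.3 CPM in ventral sums (log2 2.85 ± 0.08, adjusted p 1.2e-11). Nob1 lies 9280 bp from the gate gene Nqo1 on the same strand of chromosome 8 (107412486 to 107425051 on GRCm38), and whether this position has a part in its difference was not tested. The other neighbours of Nqo1 differed little, Nfat5 with a log2 fold change of 0.10 (adjusted p 0.14) and Wwp2 with 0.43 (adjusted p 1.7e-04). Acss3, a mitochondrial acyl-CoA synthetase, had 30.8 to 38.8 CPM in dorsal and 5.13 to 6.86 CPM in ventral sums. Acss2, the synthetase that makes acetyl-CoA from acetate, had 214.4 to 238.8 and 82.5 to 88.9 CPM, a log2 fold change of 1.44 ± 0.05.

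The next of the 12 by fold change were Hs3st5 and Gpc1, named by rank and not as a group. Hs3st5, a heparan sulfate 3-O-sulfotransferase, had 74.8, 75.0, 75.9 and 88.4 CPM in dorsal and 17.0, 17.2, 16.6 and 17.7 CPM in ventral sums (log2 2.23 ± 0.08). Gpc1, the heparan sulfate proteoglycan glypican 1, had 45.6, 54.7, 48.8 and 56.0 CPM against 11.5, 11.8, 11.7 and 13.7 CPM (log2 2.11 ± 0.09). The remaining dorsal genes were the mitochondrial carrier Slc25a35 (log2 1.59 ± 0.12), the secreted ligand Bmp6 (1.56 ± 0.09), the inorganic pyrophosphatase Ppa1 (1.47 ± 0.06) and the cytokine signalling inhibitor Socs2 (1.44 ± 0.06). None of the 12 overlapped between the sides in any library, and the largest adjusted p among them was 3.6e-07.

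The genes highest in ventral neurons were led by Avp, the vasopressin precursor, whose level rested on few cells. Avp had 67.2, 17.5, 54.5 and 195.2 CPM in the ventral sums of female 1, female 2, male 1 and male 2, and 2.43, 3.09, 4.27 and 6.48 CPM in the dorsal sums (log2 -4.38 ± 0.18, adjusted p 7.9e-10). Of 4436 ventral Avp UMIs, the 6 richest neurons held at least 50%. Most of the others were carried by many neurons, such as Nfix, where that share took 1334 of the 5446 neurons. Pdlim1, an actin-associated adaptor, had 100.2, 75.1, 79.5 and 78.6 CPM in ventral and 9.71, 2.21, 10.4 and 2.27 CPM in dorsal sums (log2 -3.82 ± 0.19). Ifi27, an interferon-inducible gene, had 126.9 to 182.1 CPM in ventral and 9.48 to 16.5 CPM in dorsal sums. C130074G19Rik had 49.9 to 57.7 and 1.90 to 5.29 CPM.

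Further ventral genes belonged to varied functions. Stk26, a protein kinase, had 48.9 to 55.5 CPM in ventral and 4.37 to 7.11 CPM in dorsal sums (log2 -3.25 ± 0.13). Cidea, a protein of lipid droplets, was steady over the ventral libraries at 189.7, 184.3, 180.9 and 188.3 CPM and had 23.3, 18.1, 24.2 and 20.4 CPM in the dorsal sums (log2 -3.09 ± 0.07, adjusted p 2.6e-12). Dnaic2, a dynein intermediate chain of motile axonemes, had 46.5 to 55.8 and 4.86 to 10.7 CPM. Rprm, known as an inhibitor of the cell cycle, had 52.6 to 89.7 and 6.16 to 18.5 CPM, and Sytl1, a Rab27 effector in vesicle transport, 141.2 to 160.7 and 20.3 to 29.4 CPM. None of the 12 ventral genes overlapped between the sides, which again follows largely from how they were chosen.

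**Figure D3:**
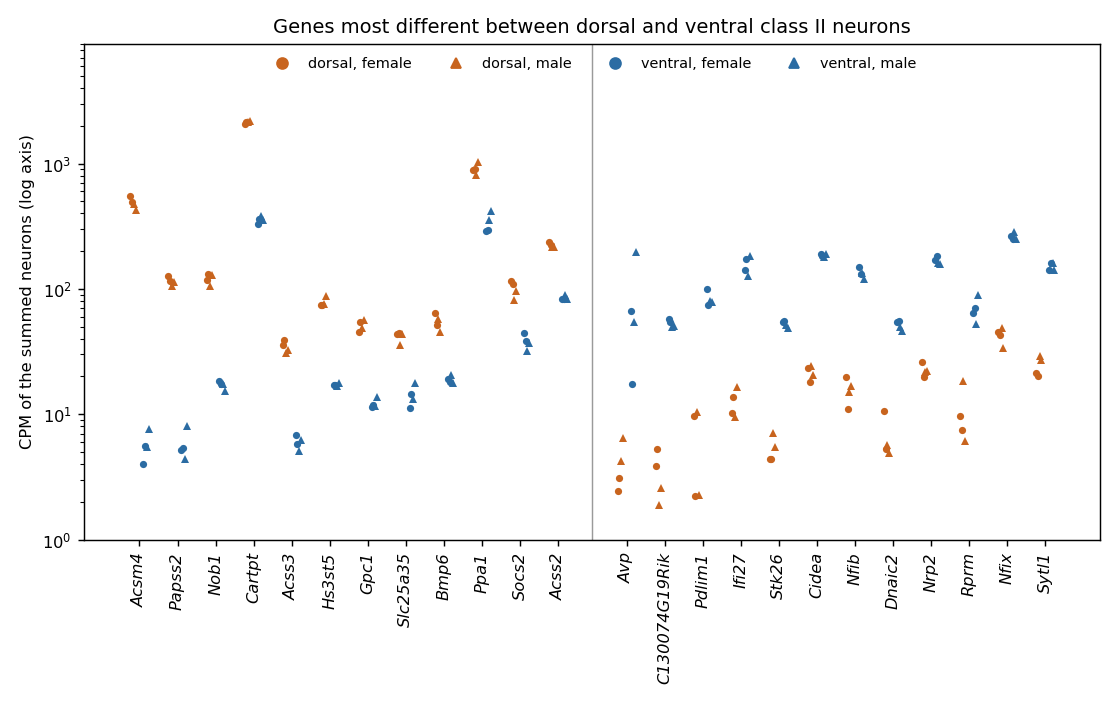
Levels (CPM, log axis) of the 12 genes most strongly dorsal (left) and the 12 most strongly ventral (right) in each library, in dorsal (orange) and ventral (blue) sums of females (circles) and males (triangles). The genes were chosen to differ alike in 4 of 4 libraries, and the colours separate in every gene. Acsm4 has 426.0 to 548.5 against 4.004 to 7.60 CPM, and Avp a wide ventral spread between 17.5 and 195.2 CPM.

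Of the 4 NFI factors, 3 were higher in ventral neurons and 1 did not pass the test. That is 75% called, against 26.3% of all genes. Nfix had 266.3, 250.4, 284.1 and 248.0 CPM in ventral and 45.6, 42.8, 48.8 and 34.0 CPM in dorsal sums (log2 -2.59 ± 0.06, adjusted p 2.6e-12). Nfib had 148.3, 131.9, 132.7 and 119.6 CPM in ventral and 19.9, 11.02, 15.2 and 16.8 CPM in dorsal sums (log2 -3.03 ± 0.10, adjusted p 4.2e-11). Nfia was lower in level, with 24.6 to 34.9 and 2.91 to 7.13 CPM (log2 -2.32 ± 0.19). Nfic overlapped between the sides, with 38.1 to 41.3 CPM in ventral and 40.8 to 49.6 CPM in dorsal sums (log2 0.21 ± 0.08, adjusted p 0.074). The median log2 fold change of the family was -2.46, against 0.00032 over all genes tested.

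Axon guidance genes differed on both sides. Of 14 listed genes 12 were tested, and 5 were higher in dorsal, 6 higher in ventral and 1 not past the test. The share called was 91.7%, against 26.3% of all genes. Nrp2, a receptor of class 3 semaphorins, had 170.3, 183.9, 161.0 and 158.8 CPM in ventral and 26.2, 19.8, 21.8 and 22.0 CPM in dorsal sums (log2 -2.87 ± 0.08, adjusted p 7.7e-12). Sema3f, the secreted semaphorin that binds Nrp2, was higher in dorsal neurons, with 19.0 to 25.2 against 13.5 to 14.9 CPM (log2 0.71 ± 0.11, adjusted p 4.0e-04). Robo2, a receptor of Slit proteins, had 172.8, 168.0, 170.7 and 148.4 CPM in dorsal and 79.1, 75.3, 79.4 and 70.9 CPM in ventral sums (log2 1.15 ± 0.05, adjusted p 6.0e-10). Its ligand Slit1 was higher in ventral neurons at 42.9 to 46.5 against 15.4 to 26.7 CPM (log2 -1.004 ± 0.11, adjusted p 1.7e-05).

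In both pairs the receptor and its ligand differed in opposite directions. Nrp1, the neuropilin of the anterior to posterior axis, was 31.4 to 46.3 CPM in dorsal and 38.0 to 44.9 CPM in ventral sums and overlapped (adjusted p 0.44), while its ligand Sema3a was higher in dorsal neurons (log2 0.73 ± 0.18, adjusted p 0.0078). Sema3a was uneven within the dorsal gate, with 14.2 CPM at 10 or more UMIs of Nqo1, 6.61 CPM at 4 to 9 and 5.94 CPM at 3. Ventral neurons with 2, 3 and 4 or more UMIs of Ncam2 had 6.11, 5.92 and 9.34 CPM. Robo1 was higher in ventral neurons (log2 -0.49 ± 0.08). The semaphorin co-receptors Plxna1 (0.31 ± 0.05) and Plxna4 (0.23 ± 0.05) were slightly higher in dorsal neurons and Plxna3 (-0.17 ± 0.05) in ventral neurons. Plxna2 (-1.91 ± 0.40) and Slit2 (-1.22 ± 0.33) were higher in ventral neurons at low levels, at most 5.47 and 6.29 CPM in any sum. In neurons with 0 UMIs of Gap43 the value of Slit2 was -0.55, which did not pass the test. Plxna3 lost its call in 9 of 20 alternatives and Sema3a in 4. Sema3c and Slit3 were too low to be tested.

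Adhesion molecules sort axons by contact. Among 21 tested immunoglobulin adhesion genes 3 were higher in dorsal and 5 in ventral neurons, against 12.6% and 13.7% of all genes, and the dorsal share is near that background. Kirrel3, a homophilic adhesion molecule that sorts olfactory axons, had 197.1, 173.3, 125.2 and 165.2 CPM in dorsal and 87.8, 94.8, 84.4 and 83.4 CPM in ventral sums (log2 0.95 ± 0.08, adjusted p 7.4e-07). Its relative Kirrel2, which is known to follow neuronal activity, was higher in ventral neurons at 953.1 to 1237 against 564.9 to 806.5 CPM (log2 -0.58 ± 0.04, adjusted p 1.3e-07). Kirrel2 was uneven within the dorsal gate, with 604 CPM at 10 or more UMIs of Nqo1, 947.1 CPM at 4 to 9 and 1016 CPM at 3. Ventral neurons with 2, 3 and 4 or more UMIs of Ncam2 had 1148, 1107 and 1069 CPM. Cadm3 was also ventral (log2 -0.99 ± 0.08). Of 12 tested ephrins and Eph receptors, Efna3 (0.76 ± 0.06) and Efna5 (0.50 ± 0.10) were higher in dorsal and Epha5 (-0.65 ± 0.05) and Epha7 (-0.36 ± 0.09) in ventral neurons. That is 33.3% called, against 26.3% of all genes.

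Of 54 tested protocadherins 4 were dorsal and 7 ventral, and of 9 classical cadherins 1 was dorsal and 3 ventral. The share of protocadherins called, 20.4%, was below the 26.3% of all genes, and that of classical cadherins was 44.4%. Pcdh1 stood at 81.4 to 93.9 CPM in ventral and 18.5 to 23.4 CPM in dorsal sums (log2 -2.09 ± 0.08, adjusted p 1.9e-10). Cdh3 (P-cadherin) had 9.72 to 13.0 CPM in ventral sums and 0 to 1.94 CPM in dorsal sums. Cdh18 had 5.57 to 7.11 and 0 to 0.88 CPM.

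The series title concerns neurexins, presynaptic adhesion proteins, and 20 of 36 listed neurexins and partners could be tested. Of these 1 was higher in dorsal and 9 in ventral neurons, 50% called against 26.3% of all genes, and the median log2 fold change was -0.21. Nrxn2 was higher in ventral neurons, with 17.7, 18.6, 18.0 and 20.8 CPM against 7.77, 10.6, 4.74 and 11.7 CPM (log2 -1.05 ± 0.17, adjusted p 3.5e-04). Nrxn3 had 4 UMIs in all dorsal and 12 in all ventral neurons and was not tested. Among the partners Clstn3 (-1.31 ± 0.22), Cntnap4 (-1.32 ± 0.29), Ptprd (-1.21 ± 0.26) and Ptprf (-1.01 ± 0.14) were ventral, all below 30 CPM, and Clstn2 was slightly dorsal (0.19 ± 0.04) at 676.4 to 720.3 against 601.6 to 640.6 CPM. In neurons with 0 UMIs of Gap43, Ptprd (-0.57) and Ptprf (-0.18) did not pass the test. The ventral calls of Tenm3, Tenm4 and Adgrl3 were lost in 12, 10 and 5 alternatives, and Tenm4 and Adgrl3 had the opposite sign, near 0, in 1 further alternative each.

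Genes of odour transduction differed by small amounts. Of 21 tested, 7 were dorsal and 4 ventral, 52.4% called against 26.3% of all genes. The channel subunit Cnga4 had 587.5 to 698.0 CPM in dorsal and 478.2 to 504.2 CPM in ventral sums (log2 0.44 ± 0.05), the chloride importer Slc12a2 differed by 0.49 ± 0.04 and Calm2 by 0.53 ± 0.03. Camk2b was ventral at a low level, 3.52 to 4.89 against 0 to 0.88 CPM. Of 8 tested receptor transport genes, Reep6 (0.61 ± 0.13) and Rtp2 (0.12 ± 0.04) were dorsal and 6 did not pass, 25% called against 26.3% of all genes. Rtp2 lost its call in 8 alternatives and Reep6 (0.06) with cells thinned to 2000 UMIs. Rtp1, which carries receptors to the membrane, overlapped (adjusted p 0.22).

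Among 11 activity-linked genes 1 was dorsal and 5 ventral, 54.5% called against 26.3% of all genes. S100a5, a calcium-binding protein known to follow receptor activity, had 11240, 9734, 16710 and 11060 CPM in dorsal and 11270, 10450, 16250 and 12770 CPM in ventral sums. The sides overlapped and male 1 was highest on both (adjusted p 0.58). Placed by receptor, as described below, its log2 fold change was -0.50 (adjusted p 2.3e-08). Of 9 neuropeptide genes, Cartpt was dorsal and 5 were ventral (66.7% called), Avp, Scg2 and Pcsk1n among the ventral ones.

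Metabolic groups held members of either side. Of 27 tested Nrf2 target and detoxification enzymes, of which Nqo1 as a gate gene was no member of the test, 8 were dorsal and 5 ventral. That is 48.15% called, against 26.3% of all genes. The sulfotransferase Sult1d1 had 1256, 1251, 1137 and 1125 CPM in dorsal and 618.3, 582.7, 615.6 and 552.2 CPM in ventral sums (log2 1.05 ± 0.04, adjusted p 2.5e-10), and malic enzyme Me1 was also dorsal (1.25 ± 0.15), whereas the epoxide hydrolase Ephx1 was ventral (-1.29 ± 0.12). In the retinoic acid pathway 4 of 12 were dorsal and 4 ventral (66.7% called). The retinaldehyde reductase Dhrs3 (-2.73 ± 0.19) and the receptors Rarb (-2.23 ± 0.20) and Rara (-2.002 ± 0.26) were ventral, and Cyp26b1, which degrades retinoic acid, was dorsal (1.53 ± 0.25) with 9.39 to 16.1 against 3.20 to 5.72 CPM.

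Of 87 nuclear genes of oxidative phosphorylation 24 were dorsal and 2 ventral, with a median log2 fold change of 0.03. The share called was 29.9%, against 26.3% of all genes. Of 13 mitochondrially encoded genes 0 were dorsal and 10 ventral, with a median of -0.20. These are a description only, since the gates limit the mitochondrial share of a neuron. Of 76 cytosolic ribosomal proteins 5 were dorsal and 4 ventral (11.8% called). With no scaling beyond library size these counts were 16 and 7, 0 and 13, and 1 and 9, so that the balance of the ribosomal proteins changed side. Of 18 immediate early genes 6 were dorsal and 2 ventral (44.4% called), led by Jun (0.90 ± 0.06, 1615 to 1889 against 813.2 to 1112 CPM) and Egr1 (0.74 ± 0.08). Fos, Fosb, Junb, Atf3 and Nr4a1 were called in the comparison of the sexes below, and Jun and Egr1 were not. Junb had -0.29 in females and 0.52 in males, Fosb -0.42 and 0.41, and Fos 0.25 and 0.73. With scored doublets removed, Fosb and Nr4a1 alone of the named genes kept that call. Of 18 genes of the unfolded protein response 4 were dorsal and 2 ventral, 33.3% called against 26.3% of all genes, and Herpud1 was ventral (-0.92 ± 0.05). Among 63 ion channel genes 11 were dorsal and 16 ventral (42.9% called), with Kcnh7 (-2.45 ± 0.19) and Kcna1 (-2.28 ± 0.28) farthest to the ventral side. Of 26 transcription factors of olfactory neurons 3 were dorsal and 8 ventral (42.3% called), among the ventral ones Meis1 (-1.51 ± 0.28) and Tshz1 (-0.66 ± 0.08).

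**Figure D4:**
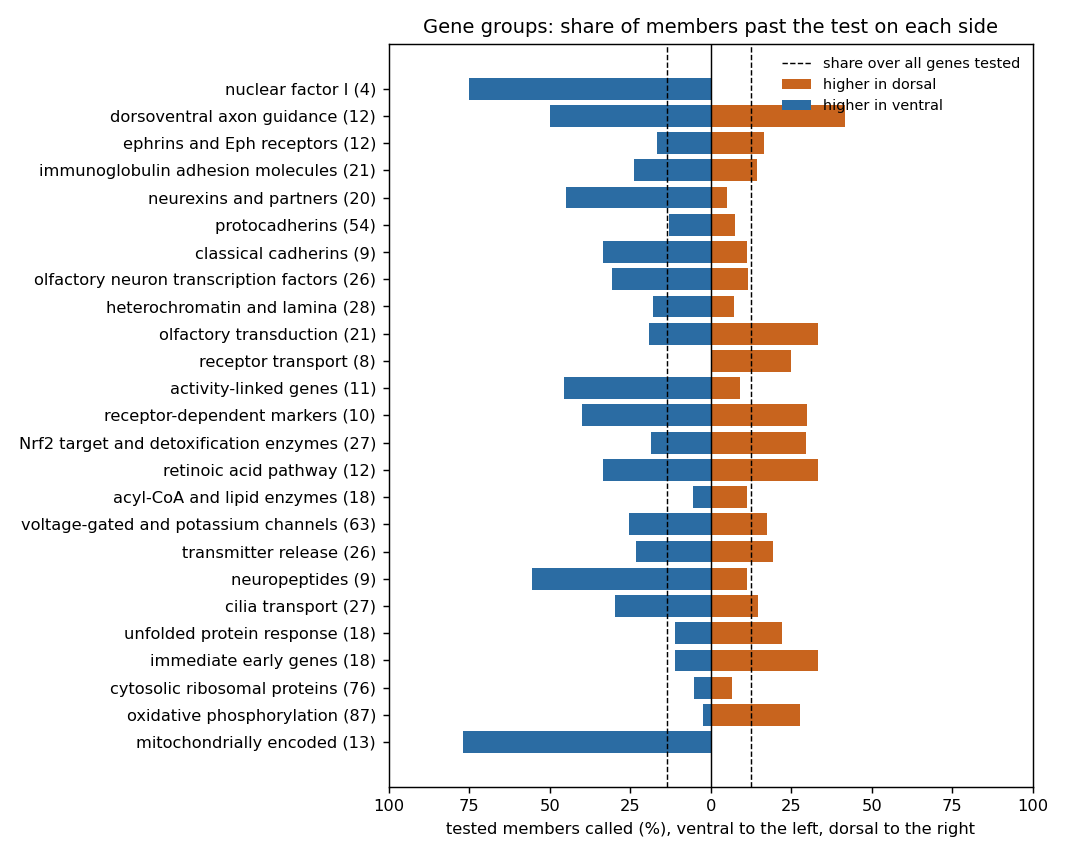
Share of tested members (%) that were higher in ventral (left, blue) or dorsal (right, orange) neurons for 25 gene groups, with the number tested in brackets and dashed lines at the shares over all genes, 13.7% and 12.6%. The NFI factors (3 of 4) and mitochondrially encoded genes (10 of 13) reach farthest to the ventral side, and axon guidance genes reach far on both sides. The mitochondrially encoded genes are a description only, since the gates limit their share.

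The same genes were followed when neurons were placed by their receptor and not by their own Nqo1 and Ncam2 counts. A receptor took its side from gated neurons of the other 3 libraries, and every class II neuron of that receptor was then used, which includes gated cells. Under this placement, chosen after the data were seen, 1984 of 11976 genes (16.6%) were called. All 24 named genes were called in the same direction, such as Acsm4 at 6.62, Cartpt at 2.96, Nfib at -2.63 and Nrp2 at -2.36 on the log2 scale. This is no independent check on the dorsal side, where most neurons were the gated cells in which these genes were chosen. Gated dorsal neurons were 26 of 26 class II neurons for Olfr1361 and 21 of 22 for Olfr411, though 17 of 31 for Olfr24. Of 461 genes that differed by at least 2-fold between the gates and were tested both ways, 331 (71.8%) were called by receptor, 330 of them with the same sign.

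Neurons that had passed neither gate were cells the rule had not chosen, though few were dorsal. Receptor side placed 9, 4, 12 and 6 such neurons as dorsal and 1041, 1020, 1009 and 940 as ventral in female 1, female 2, male 1 and male 2. The 2 sets still differed in a gate gene. Nqo1 had 1550, 897.3, 750.1 and 807.7 CPM in the dorsal ones and 11.2 to 17.7 CPM in the ventral ones. Receptor side itself came from gated neurons, so this is no check free of the gates. Of 10529 genes, 177 (1.68%) were called by edgeR, and leaving out 1 library gave 92 (female 1), 108 (female 2), 94 (male 1) and 114 (male 2). All 24 named genes had the same sign and 21 were called, among them Acsm4 (log2 5.45), Cartpt (2.84), Nfib (-2.39) and Nfix (-2.11). DESeq2 called 29 genes.

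Markers of other cells and of younger neurons moved with the sides and are given as measured. Gap43, a growth-cone protein of immature neurons, had 33.5 to 74.5 CPM in dorsal and 153.6 to 177.5 CPM in ventral sums (log2 -1.77 ± 0.14). Over the 7 immature markers 3 were higher in dorsal and 4 in ventral neurons, with summed levels of 1445 to 1620 and 1461 to 1634 CPM. That is 100% called, against 26.3% of all genes. The ventral shifts were larger, with log2 values from -1.77 to 0.28 and a median of -0.88. From 1 UMI of Ncam2 to 4 or more, Gap43 rose from 70.8 to 293 CPM and Stmn1, another immature marker, from 70.3 to 172.9 CPM. At 10 or more UMIs of Nqo1 they had 64.0 and 63.5 CPM. In neurons with 0 UMIs of Gap43, 2638 of 11028 genes (23.9%) were called, all 24 named genes included. Of 5 macrophage markers 4 were higher in ventral neurons (80% called), with C1qc at 0 in 3 of the 4 dorsal sums and summed levels of 7.28 to 17.2 and 22.6 to 99.7 CPM. The erythroid markers Hbb-bs and Hbb-bt were ventral (Hbb-bs at 257.5, 433.8, 13.1 and 150.0 CPM in the ventral and 8.25 to 22.9 CPM in the dorsal sums), and Hba-a2 was at 0 in all dorsal sums. The ventral Hbb-bs level of male 1 lay within the dorsal range. In such sums fewer cells of a kind and less RNA per cell cannot be told apart.

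The glial marker Fabp7 was dorsal, at 0, 75.0, 1.42 and 36.6 CPM against 0.32, 11.7, 0.29 and 0.98 CPM, and took the opposite sign when neurons were placed by receptor (-3.93). The summed levels of the glial markers were 6.80 to 178.6 CPM in dorsal and 15.6 to 45.8 CPM in ventral sums. Over the 9 tested sustentacular (supporting cell) markers 2 were higher in dorsal neurons, 22.2% called against 26.3% of all genes. Their summed levels were 669.7 to 934.2 and 467.2 to 912.7 CPM. Without neurons that held a UMI of a macrophage, erythroid or glial marker, 2925 genes were called and all 24 named genes were among them.

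Ventral neurons differed among themselves by the receptor they used. An F test of edgeR over 40 receptors with at least 5 ventral neurons in every library (1668 neurons, 160 sums) called 1418 of 8980 genes (15.8%). The genes with the widest spread were Avp, Mboat1, Pcdh7, Tuba4a, Rprm, Cd74, Etv4 and Apoe. Avp was at 0 for 21 of the 40 receptors and reached 1554 CPM in the 39 neurons of Olfr741. The same receptor also had the highest Pcdh7 (339.4 CPM), Rprm (697.6 CPM) and Etv4 (274.4 CPM). Tuba4a, an alpha-tubulin, ranged from 0 CPM (Olfr1252) to 374.4 CPM (Olfr1110).

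For 6 of these 8 genes the receptors kept a similar order in females and males, with Pearson r across the 40 receptors between 0.58 (Rprm) and 0.88 (Mboat1) on log2(CPM + 1). For Cd74 and Apoe, which macrophages express, r was 0.06 and -0.03. Female and male levels came from different libraries, and sums of few neurons were shallow. The genes were chosen for their spread over receptors in the same 4 libraries, so r is a description and no independent check. Avp was at 0 for 21 of the 40 receptors and Mboat1 for 16.

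The genes that separated the sides differed in how evenly ventral neurons carried them. Nfix did not vary detectably between receptors (202.4 to 364.2 CPM, adjusted p 0.13), nor did Stk26 (adjusted p 0.64), Acss2 (adjusted p 0.83) or Nrxn2 (adjusted p 0.98). Nrp2 did, from 42.1 CPM (Olfr55) to 387.5 CPM (Olfr1228, adjusted p 1.5e-24). Cidea spanned 5.62 CPM (Olfr55) to 647.6 CPM (Olfr536, adjusted p 3.4e-61), and Kirrel3 2.08 CPM (Olfr1211) to 410.8 CPM (Olfr1110, adjusted p 2.5e-54).

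Olfr1252 was singled out among the ventral receptors after the values were seen, and is described without a test. All of its 22 gated neurons were ventral. It had the highest level of 3 of the 8 named dorsal genes tested here, Cartpt (1015 CPM, median over receptors 133.8), Hs3st5 (49.8 CPM) and Bmp6 (113.2 CPM), and the lowest of 3 of the 12 ventral ones, Pdlim1 (0 CPM), Ifi27 (9.06 CPM) and Nfib (58.9 CPM). Cartpt was high in its females (966.8 CPM) and males (1069 CPM). Nfix, at 294.4 CPM, lay at an ordinary ventral level. Olfr1112 was lowest for more ventral genes, 4 of the 12 (Rprm, Stk26, Dnaic2 and Sytl1), and highest for 0 of the 8 dorsal ones.

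**Figure D5:**
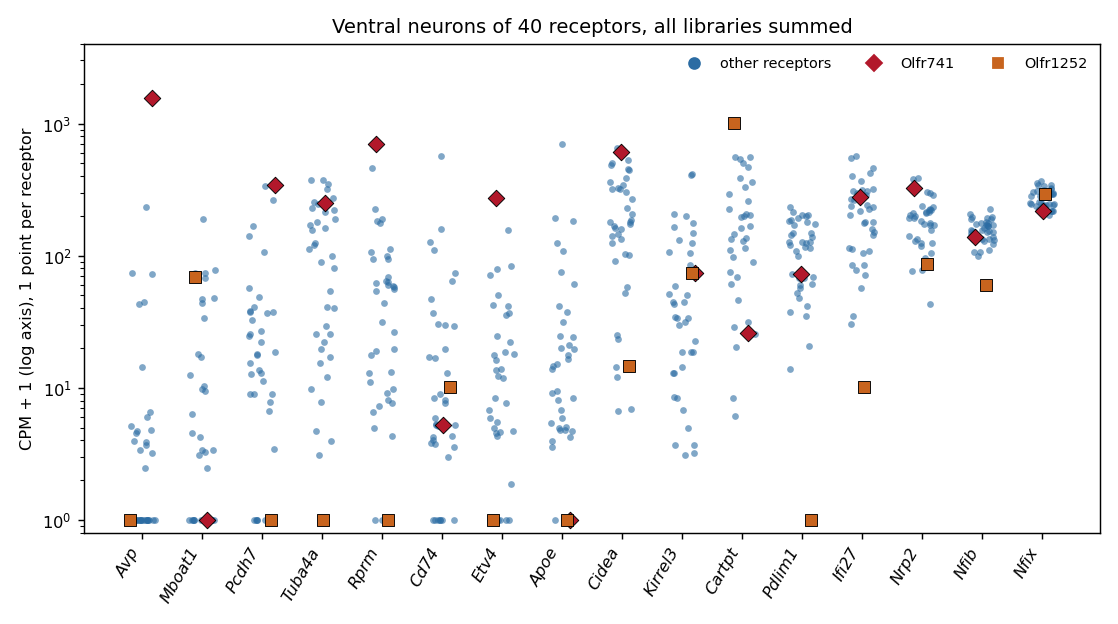
Level of 16 genes (CPM + 1, log axis) in ventral neurons of each of 40 receptors, all libraries summed, with Olfr741 (red diamonds) and Olfr1252 (orange squares) marked. Avp and Pcdh7 spread over several orders of magnitude with Olfr741 on top, Olfr1252 is highest for Cartpt and at 0 for Pdlim1, and Nfix stays between 202.4 and 364.2 CPM.

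Too few receptors had at least 5 dorsal neurons in every library for the same test. At 2 neurons or more, a limit chosen after the data were seen, 8 receptors and 127 dorsal neurons gave 180 of 5317 genes (3.39%). S100a6, a calcium-binding protein, reached 959.6 CPM in neurons of Olfr65, which lies within the class I span, and was at 0 for 4 of the 8 receptors (adjusted p 1.2e-43). Without Olfr65, 128 of 5278 genes were called, S100a6 was at most 44.6 CPM and too low to be tested, and Kirrel3 ranged from 8.91 CPM (Olfr418) to 377.6 CPM (Olfr1030, adjusted p 3.4e-07). The other genes of widest spread, Mboat1, Ccnd1, Kif19a, Stmnd1, Pebp1 and Sox11, rested on 33 to 79 UMIs each. Acsm4 did not vary detectably (285.2 to 721.9 CPM, adjusted p 0.57), and neither did Hs3st5, Gpc1 or Bmp6. The last 3 rested on 71, 50 and 48 UMIs over the 8 receptors, so differences between receptors could be missed.

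The difference between the sides was compared between the sexes with an interaction term of edgeR. Of 11518 genes 15 (0.13%) were called and 694 had an unadjusted p under 0.05. All 15 had the higher dorsal over ventral ratio in males, led by Ccn1, Igfbp2, Socs3, Cyp2f2, Zfp36l1 and Aqp3. Ccn1 had 10.7 and 9.26 CPM in the dorsal sums of the females and 26.1 and 52.5 CPM in those of the males, against 33.6 and 28.9 and 7.33 and 22.4 CPM in ventral sums. For 13 of the 15 the level in barcodes rich in Cyp2g1 was above that of any neuron sum, such as 540.2 CPM for Ccn1. With scored doublets removed 8 genes were called, 3 of the 15 among them, and Ccn1 had an interaction of 0.04 in place of 3.04. With neurons at 0 UMIs of Cyp2g1 6 genes were called, 2 of the 15 (Atf3 and Nr4a1) among them. The interactions of Ccn1 (3.15), Socs3 (2.55), Zfp36l1 (1.85) and Aqp3 (1.17) stayed about as large without passing the test. Others fell, such as Cyp2f2 (0.15 in place of 0.93) and Hspa1a (0.78 in place of 1.395), and Hbb-bt changed sign (-1.01 in place of 4.63). Without 1 library 82 (female 1), 157 (female 2), 29 (male 1) and 37 genes (male 2) were called, where the lone library of a sex was assumed to vary like the others.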

How the data were processed

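The 4 libraries were made from dissociated epithelium with a 5′ droplet kit, per the labels' protocols. The values used are raw counts of UMIs, as the authors deposited them for every barcode. The file headers name Cell Ranger 6.0.2, while the submitters' processing notes name Cell Ranger 5.0.1 and the build mm10. The table lists 22399 genes, 1102 of them odorant receptors, and 22285 gene IDs matched GENCODE M21, the source of all positions.

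Counts of gated neurons were summed per library and side into 8 sums and tested with edgeR 4.0.16 (R 4.3.3): quasi-likelihood test, TMM scaling, filterByExpr, library as a block, Benjamini-Hochberg over all genes tested. Receptor genes (Olfr, Taar, Vmn), Nqo1 and Ncam2 stayed in library sizes and out of the tests. Omp, Cyp2g1 and the mitochondrially encoded genes, which the gates also use, are a description only. CPM were computed here. Doublets were not removed in the main test. In an alternative, barcodes were scored against simulated doublets (2 per barcode, 50 neighbours) and the highest-scoring share removed, which grew with the number of barcodes, leaving out 34 of the dorsal and 348 of the ventral neurons. With the library as a block, edgeR p-values measure how differences between sides or receptors vary over these 4 libraries. That variation may be technical.

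Both sides of a pair come from the same library, so the block is the design's own pairing. The deviations of the 2 sides of a library from their side means correlated at 0.0609, 0.0963, 0.149 and 0.19 across genes, against -0.2 to 0.0576 for sides of different libraries.

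Named genes were the 12 with the largest fold change on each side that were called, moved alike in 4 of 4 libraries and had a mean of at least 20 CPM, up to 4 called members of each gene list (all members of lists of 16 or fewer), the 8 with the widest spread over receptors on each side, and 6 interaction genes by p. The gates, members and gene lists were chosen with earlier results of these data known. The alternatives used other scaling (RLE, none), DESeq2 1.42.0, no low-count filter, stricter gates, Cyp2g1 of 0, doublet removal, depth limits of 2000 and 4000 UMIs, limits on receptors, no receptors within the class I span, and each library left out. Some genes are not reported here.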

Additional observations from a re-analysis of the deposited data

Results flagged for a closer look

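A sample stood far from the other 3 of its group in 4 of 49 groups examined among the named genes, and chance gives about 1 in 20. Hs3st5 was high in the dorsal sum of male 2 (88.43 CPM), Gpc1 was high in the ventral sum of male 2 (13.73 CPM), Slc25a35 was low in the dorsal sum of male 1 (35.56 CPM) and Dnaic2 was high in the dorsal sum of female 1 (10.68 CPM). In each the sides still did not overlap.

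The difference between the sides differed between the sexes for 6 leading genes by the interaction test of edgeR, given as log2 of male minus female: Igfbp2 6.1584, Ccn1 3.0436, Socs3 2.7683, Zfp36l1 1.547, Aqp3 1.2366 and Cyp2f2 0.9282. Igfbp2 rested on the dorsal sum of male 2, at 43.4 CPM against 0.44 to 3.32 CPM in the other dorsal sums. With scored doublets removed Igfbp2 was not tested and none of the other 5 was called. The values of Ccn1, Socs3, Cyp2f2, Zfp36l1 and Aqp3 were 0.04, 0.10, 0.26, -0.41 and 0.09.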

How the results depend on the processing

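All 24 named genes kept their direction and call under every alternative run for the comparison of the sides. Of 160 genes followed, 85 did, 72 lost the call in at least 1 alternative and 10 took the opposite sign in at least 1.

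The count of 3025 genes was 1630 with DESeq2, 1823 with Cyp2g1 of 0, 1440 with cells thinned to 2000 UMIs and 1984 with sides by receptor, and 2193 to 2654 without 1 library. With no replicate block it was 2851. The ungated count of 177 was 29 with DESeq2 and 92 to 114 without 1 library, and 157 with no replicate block. The receptor test within ventral neurons gave 1339 in place of 1418 with no replicate block and 987 to 1135 without 1 library. The interaction count of 15 was 105 with no filter on low counts, 6 with Cyp2g1 of 0, 8 with doublets removed and 29 to 157 without 1 library. The cause was not tested. The difference in dorsal share was 0.813 to 8.56 points without 1 library.

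Opposite signs were near 0 except for Fabp7. By receptor, Adgrl3 had 0.0024, Mslnl -0.0301, Ckb -0.0527, Gng8 0.0303, Fabp7 -3.93 and Omp -0.0054. Without Gap43 UMIs, Tenm4 had 0.0021, Nrp1 0.075 and Omp -0.0116. Muc5b had 0.0232 without other cells' markers and Neurod1 0.0813 with doublets removed.

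A receptor side set at 95% of at least 20 neurons left 0 dorsal ungated neurons, and that test, like the dorsal receptor test at 5 or 8 neurons, was not run. Low dorsal numbers limit both.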
